A study of Mus musculus with 18 samples.

Results

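The Hox genes are the homeobox genes of the *Hoxa*, *Hoxb*, *Hoxc* and *Hoxd* clusters. They were taken from the gene table by symbol (*Hox*, a cluster letter and a number), which gave 39 genes on 40 of 54532 rows, because *Hoxd4* has 2 rows. The clusters lie on GRCm38 at chr6:52155590-52260880 (*Hoxa*, 11 genes), chr11:96194316-96368256 (*Hoxb*, 10 genes), chr15:102921103-103036852 (*Hoxc*, 9 genes) and chr2:74668310-74765142 (*Hoxd*, 9 genes). Of these, 15 genes had at least 1 count in the 18 libraries and 10 passed the filter on low counts, among them *Hoxa2* to *Hoxa7*, *Hoxa9*, *Hoxa10* and *Hoxc13*.

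Poly(A) RNA of 10T1/2 cells, a multipotent mouse embryonic fibroblast line, was sequenced from WT cells and from 2 FOXS1 KO clones. FOXS1 is a forkhead transcription factor, and each clone was grown from a single cell after CRISPR-Cas9 editing with 2 pairs of guide RNAs against its exon, so a clone is 1 event of cloning as well as of editing. Cells of each genotype were taken uninduced or after 1 nM TGF-β1 for 12 h followed by DMII for 48 h, the treatment being started on cells kept past confluence. DMII is a fat-cell inducing mix (indomethacin, insulin, the phosphodiesterase inhibitor 3-isobutyl-1-methylxanthine, and dexamethasone), and there were 3 libraries in each of the 6 groups (WT, clone 1 and clone 2, each uninduced and stimulated). The sources used here do not say whether the 3 libraries of a group came from separate cultures, so p-values measure the spread between these libraries.

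Hox proteins are DNA-binding factors that give cells along the head to tail axis their regional identity. Within a cluster, genes at the low-numbered end are expressed further towards the head and earlier, and those at the high-numbered end further towards the tail and, in limbs, further from the trunk. Fibroblasts in culture are known to keep a Hox pattern that reflects the site they came from, and Polycomb and Trithorax proteins hold the clusters in silent or active states.

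Every Hox gene carries a homeobox of 180 bases that encodes the DNA-binding homeodomain of 60 residues. These sequences were found in GENCODE M21 transcripts of all 39 genes, and are shown for *Hoxa4* and *Hoxa10*, which passed the thresholds in clone 2, and for *Hoxc13* beside its paralog *Hoxa13*, because closely related homeoboxes are where reads of one Hox gene could be taken for another. They run 5′ to 3′ on the coding strand of GRCm38, and capitals mark the codons of the recognition helix that most Hox proteins share. The intervals are chr6:52190483-52190662 for *Hoxa4*, chr6:52232554-52232733 for *Hoxa10* and chr6:52258928-52259107 for *Hoxa13*, all on the minus strand, and chr15:102927210-102927389 for *Hoxc13* on the plus strand.
Hoxa4: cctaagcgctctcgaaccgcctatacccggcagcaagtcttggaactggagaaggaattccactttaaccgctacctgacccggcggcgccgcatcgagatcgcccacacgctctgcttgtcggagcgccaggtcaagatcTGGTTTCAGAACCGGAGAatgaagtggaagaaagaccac
Hoxa10: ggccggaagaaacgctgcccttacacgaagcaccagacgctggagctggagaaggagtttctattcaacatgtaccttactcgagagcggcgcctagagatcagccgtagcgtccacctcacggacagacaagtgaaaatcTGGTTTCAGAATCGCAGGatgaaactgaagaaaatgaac
Hoxa13: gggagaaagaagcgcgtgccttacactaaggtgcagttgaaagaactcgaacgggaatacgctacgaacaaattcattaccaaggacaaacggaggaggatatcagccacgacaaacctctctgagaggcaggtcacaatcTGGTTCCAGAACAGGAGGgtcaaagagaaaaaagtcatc
Hoxc13: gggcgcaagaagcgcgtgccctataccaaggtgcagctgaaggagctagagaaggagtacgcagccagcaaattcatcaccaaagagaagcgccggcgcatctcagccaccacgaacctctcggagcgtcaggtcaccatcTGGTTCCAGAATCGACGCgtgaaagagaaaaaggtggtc
*Hoxc13* was closest to *Hoxa13*, with 91.7% of homeodomain residues shared but 41 base differences between their homeoboxes. The most similar pair among the tested genes, *Hoxa6* and *Hoxa7*, differed at 20 bases. Over whole transcripts, no stretch of 50 bases of *Hoxa5*, *Hoxa10* or *Hoxc13* occurred in any other gene on either strand. Of the 825 such stretches of *Hoxa6*, 3 did, in *Hoxb4*. The share was 24.3% for *Hoxa3*, 18.7% for *Hoxa7*, 13.3% for *Hoxa4*, 12.7% for *Hoxa2* and 0.646% for *Hoxa9*. For *Hoxa3*, 9 stretches occurred in genes away from the clusters.

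The libraries held 15576685 to 42005596 counts each. Summed over 9 fibroblast markers the level was 34305 to 79931 CPM (counts scaled to library size by TMM), but single markers differed between genotypes in both directions. In uninduced cells 5 of the 9 were below WT in every library of both clones and 2 above (*Col1a1* and *Pdgfrb*). After stimulation 4 were below and 1 above (*Col1a1*). In uninduced cells *Pdgfra* had 502 to 534 CPM in WT, against 168 to 173 (clone 1) and 209 to 222 (clone 2). In stimulated cells *Prrx1* had 1012 to 1065 CPM in WT, against 383 to 422 (clone 1) and 587 to 648 (clone 2). *Thy1* had 45.9 to 60.9 CPM in WT, 155 to 192 in clone 1 and at most 0.870 in clone 2. Summed markers of epithelial, haematopoietic, skeletal muscle and pluripotent cells reached at most 3.73 CPM for any list, and 4 neural markers 35.4 to 60.2. The sum of 4 endothelial markers was 5.03 to 7.92 CPM in uninduced WT and at most 0.828 in every other group, and *Tek* made up most of it (4.93 to 6.52 CPM in uninduced WT). *Foxs1* itself (chr2:152931898-152933208) had 2.23 ± 0.886 CPM in uninduced WT cells, and 25.7 ± 2.04 and 22.6 ± 1.44 CPM in the clones. After stimulation these levels were 2.51 ± 0.641, 54.5 ± 2.06 and 39.9 ± 2.59. Its counts were thus higher in every library labelled FOXS1 KO than in every WT library, and the gene total does not show an edited exon, so it could not be used to check the labels. The authors reported a disrupted locus by genomic sequencing, and loss of the FOXS1 protein in both clones by western blot.

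The cluster in use was *Hoxa*. It held 38192 of the 38367 Hox counts (99.5%), and *Hoxc* held 167, *Hoxb* 8 and *Hoxd* none. On a scale per length (FPKM, from the deposited gene lengths), *Hoxa* made up 98.2% ± 0.159 of the Hox signal in uninduced clone 1, 99.1% ± 0.254 in stimulated clone 1 and 99.9% or more of the mean of every other group. In uninduced WT cells *Hoxa7* was highest at 19.8 ± 2.05 FPKM (SD, n = 3), followed by *Hoxa2* at 15.6 ± 1.72, *Hoxa4* at 7.28 ± 0.710 and *Hoxa5* at 6.04 ± 1.07. *Hoxa3* (3.68 ± 0.160), *Hoxa10* (3.29 ± 0.367) and *Hoxa6* (2.18 ± 1.12) came next, and *Hoxa9* (0.135 ± 0.0414) was lowest of the tested *Hoxa* genes. The libraries of *Hoxa4* and *Hoxa5* overlapped, as did those of *Hoxa10* and *Hoxa6*, so those neighbours in the order did not differ beyond their spread. The level did not follow position along the cluster: a nearly silent *Hoxa9* lay between *Hoxa7* and *Hoxa10*.

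The order was similar in uninduced clones except at *Hoxa4*. *Hoxa7* and *Hoxa2* led in clone 1 (14.9 ± 0.451 and 11.2 ± 1.00 FPKM) and in clone 2 (14.6 ± 1.08 and 11.6 ± 0.897). *Hoxa4* had rank 4 in clone 1, overlapping *Hoxa5*, and rank 5 in clone 2 at 2.68 ± 0.213, overlapping *Hoxa3*. In stimulated clones, *Hoxa5* stood beside the leading genes: *Hoxa7*, *Hoxa5* and *Hoxa2* were at 7.63, 6.62 and 5.60 FPKM in clone 1 and at 6.35, 6.01 and 5.18 in clone 2, each overlapping the next. Stimulated WT cells had the same leading genes, with *Hoxa7* at 10.4, *Hoxa2* at 9.76 and *Hoxa5* at 7.78 FPKM. There *Hoxa5* did not overlap *Hoxa2*, and *Hoxa10* came next at 2.91.

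**Figure D1:**
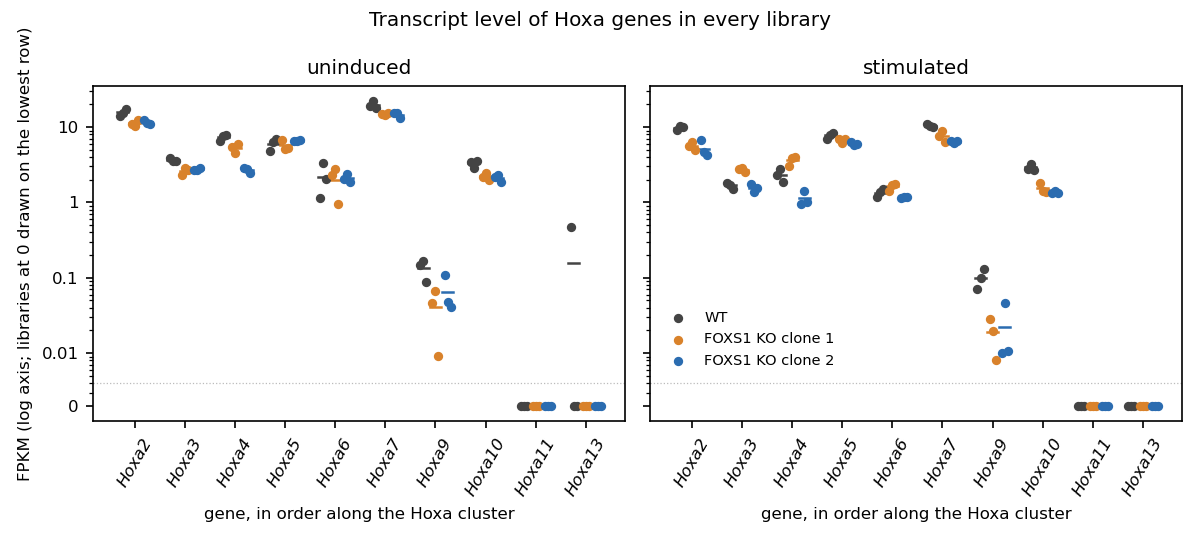
FPKM on a log axis for each library (points, with 0 drawn on the lowest row) and group mean (short lines) of 10 *Hoxa* genes in cluster order, uninduced on the left and stimulated on the right. *Hoxa2* to *Hoxa10* were detected in all 18 libraries, *Hoxa11* in none and *Hoxa13* in 1.

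The high-numbered end of *Hoxa* and the other clusters were at or near 0. *Hoxa11*, next to *Hoxa10*, had no count in any library. *Hoxa13*, the end of the cluster and a gene of distal limb and urogenital tissue, had 20 counts in replicate 1 of uninduced WT cells and none in the other 17 libraries. In all, 24 genes had no count in 387622970 counts, which allows a level of up to 0.00773 CPM on average. Within a single group of 3 libraries, no count allows up to 0.0354 to 0.0603 CPM; these limits cover counting error only. Of the silent genes, *Hoxb3* lay under the antisense gene *Hoxb3os* for 52.9% of its exonic bases, and *Hoxd3* and *Hoxd4* under each other and *Gm28230* for 62.3% and 52.3%. The sources do not say how reads in shared bases were counted.

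The few remaining counts were scattered. *Hoxb4* had 6 counts, in 3 WT libraries, and *Hoxb8* had 2, in replicate 2 of stimulated WT cells. *Hoxc6* had 1 count, in uninduced WT cells. *Hoxc9* had 8, all in clone 1 (5 in 1 uninduced library, 2 and 1 in 2 stimulated libraries). None of these genes was tested. The genes of the *Cdx* family, which act upstream of the clusters in the embryo, did not pass the filter, and *Cdx2* and *Cdx4* had no count.

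In bulk RNA, fewer cells using a gene and less RNA per cell cannot be told apart, for these and all results below. The alignment notes do not state whether counting used strand. In M21, 25.4% of the exonic bases of *Hoxa3* lie under antisense genes and 8.01% under a read-through gene, *Gm28308*, that had no count. For *Hoxa7* the antisense share was 20.4%, and for *Hoxa4* 16%, and it was 0 for *Hoxa2* (15% under *Gm28308* on the same strand), *Hoxa5*, *Hoxa6*, *Hoxa9* and *Hoxa10*. Among the antisense genes, *Hoxaas2* had 1.61 to 9.83 CPM over the pooled libraries of a group, *Hotairm1* 0.591 to 1.92 and *Hoxaas3* 0.261 to 1.21, while *Gm29430*, which overlaps *Hoxa4*, had at most 10 counts in a group.

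Uninduced clones had less *Hoxa* RNA than WT. Summed over *Hoxa*, uninduced WT cells had 146 ± 6.23 CPM (SD, n = 3), clone 1 108 ± 2.04 and clone 2 106 ± 4.62. The lowest WT library (139.8 CPM) was above the highest library of clone 1 (110.5) and of clone 2 (109.998). The median log2 fold change over the 9 tested *Hoxa* genes was -0.48 in clone 1 and -0.43 in clone 2, beside -0.01 and -0.02 over all 14317 tested genes. The medians of 482 well-expressed genes of chromosome 6 were -0.16 and -0.17, and those of 12 tested genes within 1 Mb of the cluster -0.09 and -0.17. With an adjusted p under 0.05 alone (edgeR's quasi-likelihood test, Benjamini-Hochberg adjusted), 7 of 9 *Hoxa* genes were lower in clone 1, where 27.2% of all tested genes were, and 5 in clone 2, where 26.9% were. The endothelial marker sum, mostly *Tek*, was also lower in both uninduced clones. Of the 9 fibroblast markers 5 were lower there, *Pdgfra* and *Prrx1* among them, and 2, *Col1a1* and *Pdgfrb*, were higher. The part of these markers in the *Hoxa* differences was not tested.

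Most of these differences were under the fold threshold of 2. Past both thresholds (adjusted p under 0.05 and an absolute log2 fold change above 1) were 2 of the 10 tested Hox genes in clone 1, *Hoxa9* and *Hoxc13*, beside 15.1% of all tested genes. *Hoxc13* was among the tested genes only through its counts in clone 1, and *Hoxa9* only through its counts in WT. In clone 2 only *Hoxa4* passed, beside 15.1% of all genes. With glmTreat, an edgeR test against the fold threshold itself, 1 gene was called in each clone.

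*Hoxa4*, a trunk patterning gene, had 10.3, 12.1 and 12.4 CPM in the uninduced WT libraries, 8.55, 7.29 and 9.58 in clone 1 and 4.51, 4.43 and 3.88 in clone 2. Both clones lay below WT in every library, and clone 2 below clone 1 as well. Its log2 fold change was -1.43 ± 0.17 (SE) in clone 2 (adjusted p = 4.29e-08, edgeR's quasi-likelihood test) and -0.45 ± 0.17 in clone 1 (adjusted p = 0.0241). Between the clones it differed by 0.98 ± 0.18 (adjusted p = 4.18e-05), just short of the fold threshold. Without clone 1 replicate 2 that difference was 1.07, and without clone 2 replicate 1 it was 1.02, both past it.

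*Hoxa9*, a gene of trunk and proximal limb and the weakest of the tested *Hoxa* genes, had 14, 18 and 13 counts in the uninduced WT libraries (0.815, 0.944 and 0.496 CPM) and 5, 7 and 1 in clone 1 (0.256, 0.375 and 0.0518 CPM). In clone 2 it had 27, 6 and 4 counts (0.602, 0.266 and 0.232 CPM). The groups of WT and clone 1 did not overlap, while the highest clone 2 library lay within the WT range. *Hoxa9* passed the filter on low counts only through WT, so its tests relative to WT give that difference no separate support. The log2 fold change was -1.69 ± 0.68 in clone 1 (adjusted p = 0.0372, edgeR's quasi-likelihood test) and -0.91 ± 0.60 in clone 2 (adjusted p = 0.215). At these counts the call in clone 1 was lost without WT replicate 1 (adjusted p = 0.0548) or 2 (0.101), without clone 1 replicate 1 (0.0788) or 3 (0.173), and without stimulated WT replicate 2 (0.0533) or 3 (0.051), which share the estimate of the spread. DESeq2 (0.0578) and the fit with no filter (0.118) did not call it.

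The other members stayed under the fold threshold. *Hoxa10*, a gene of the posterior trunk and proximal limb, had 11.4, 9.38 and 11.5 CPM in WT, 7.22, 8.05 and 6.47 in clone 1 and 7.05, 7.66 and 6.15 in clone 2, with no overlap of either clone with WT (log2 fold changes -0.57 ± 0.15 and -0.63 ± 0.15). *Hoxa7* was 0.41 and 0.43 lower on the log2 scale, *Hoxa2*, the gene of the second pharyngeal arch, 0.48 and 0.43 lower, and *Hoxa3*, a gene of the pharyngeal arches and neck, 0.48 and 0.41 lower in clones 1 and 2. *Hoxa5* had log2 fold changes with 95% intervals of -0.34 to 0.18 (clone 1) and -0.13 to 0.38 (clone 2), and *Hoxa6*, with 16 to 81 counts per library, of -0.87 to 0.61 and -0.78 to 0.67.

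After stimulation the clones parted at *Hoxa3* and *Hoxa4*. Summed *Hoxa* was 89.2 ± 2.70 CPM in stimulated WT cells, 73.9 ± 4.61 in clone 1 and 57.0 ± 3.45 in clone 2. Past both thresholds relative to WT were 3 of 10 Hox genes in clone 1 (*Hoxa9* and *Hoxc13* among them), beside 19% of all tested genes, and 3 of 10 in clone 2 (*Hoxa4*, *Hoxa9* and *Hoxa10*), beside 16.9%. Of these, *Hoxc13* was tested only through its counts in clone 1 and *Hoxa9* only through its counts in WT. With glmTreat 1 was called in clone 1 and 0 in clone 2. With the adjusted p alone, 5 *Hoxa* genes were lower in clone 1 (30.5% of all genes were) and 2, *Hoxa3* and *Hoxa4*, higher (28.4%), and 6 were lower in clone 2 (28.3%). The median over the *Hoxa* genes was -0.45 in clone 1 and -0.71 in clone 2, beside -0.02 and -0.01 over all tested genes.

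*Hoxa4* had 3.67, 4.49 and 2.98 CPM in stimulated WT libraries, 4.84, 6.23 and 6.47 in clone 1 and 1.51, 2.29 and 1.62 in clone 2. The groups did not overlap: clone 1 lay above WT and clone 2 below it. Clone 2 differed from WT by -1.05 ± 0.22 (adjusted p = 0.000173, edgeR's quasi-likelihood test), clone 1 by 0.66 ± 0.18 (adjusted p = 0.00297) and clone 1 from clone 2 by 1.71 ± 0.21 (adjusted p = 8.88e-08). The call in clone 2 fell under the fold threshold without stimulated WT replicate 2 (-0.88), without clone 2 replicate 1 (-0.93) or 3 (-0.98), and with the median of chromosome 6 subtracted (-0.89).

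*Hoxa3* had 11, 10.2 and 9.15 CPM in WT, 16.7, 17.1 and 15.3 in clone 1 and 10.5, 8.37 and 9.32 in clone 2. Clone 1 was above every stimulated library of the other genotypes, and clone 2 overlapped WT. The log2 difference from WT was 0.69 ± 0.11 in clone 1 (adjusted p = 4.22e-06, edgeR's quasi-likelihood test) and -0.10 ± 0.12 in clone 2 (adjusted p = 0.509). Between the clones it was 0.79 ± 0.12 (adjusted p = 1.47e-06), under the fold threshold.

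*Hoxa9* had 8, 13 and 16 counts in stimulated WT libraries, 3, 3 and 1 in clone 1 and 1, 4 and 1 in clone 2. WT did not overlap either clone in CPM (0.391 to 0.721 against 0.0455 to 0.160 and 0.0560 to 0.262). Because *Hoxa9* passed the filter on low counts only through WT, its tests here give that difference no separate support either. The log2 fold changes were -2.37 ± 0.75 (adjusted p = 0.00806, edgeR's quasi-likelihood test) and -2.15 ± 0.78 (adjusted p = 0.0209). In clone 2 the call was lost without stimulated WT replicate 3 (adjusted p = 0.0754), without clone 2 replicate 1 (0.102) or 3 (0.094), and with no filter (0.0556).

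*Hoxa10* had 8.998, 10.7 and 8.88 CPM in WT, 5.96, 4.57 and 4.51 in clone 1 and 4.37, 4.71 and 4.33 in clone 2, again without overlap with WT. It fell short of the fold threshold in clone 1 (-0.93 ± 0.15) and passed it in clone 2 (-1.09 ± 0.16, adjusted p = 1.08e-06, edgeR's quasi-likelihood test). Without stimulated WT replicate 2 clone 2 was at -0.999, and with the chromosome 6 median subtracted at -0.94, while without clone 1 replicate 1 clone 1 was at -1.07. The difference between the clones had an interval of -0.17 to 0.49.

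Among the rest, *Hoxa2* was 0.80 ± 0.13 and 0.91 ± 0.14 lower and *Hoxa7* 0.45 ± 0.10 and 0.71 ± 0.10 lower in clones 1 and 2. *Hoxa5*, a gene of the neck, lung and thorax, was at -0.24 ± 0.13 and -0.37 ± 0.13, and *Hoxa6* had intervals of -0.49 to 1.04 and -1.02 to 0.61.

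**Figure D2:**
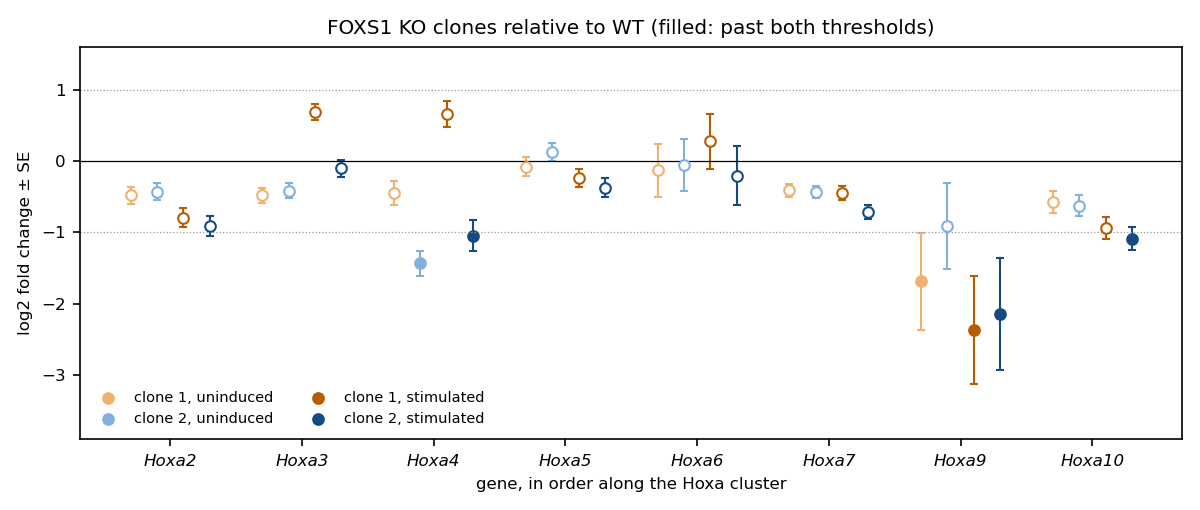
Log2 fold change and SE from the edgeR fit for 8 tested *Hoxa* genes in both FOXS1 KO clones, each set against WT, uninduced (pale) and stimulated (dark). Dotted lines mark the fold threshold and filled points passed both thresholds. *Hoxa3* and *Hoxa4* in stimulated clone 1 are above 0 at 0.69 and 0.66, where clone 2 is at -0.10 and -1.05.

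Compared directly, the uninduced clones differed past both thresholds at 1 of 10 Hox genes (*Hoxc13*), beside 8.67% of all tested genes. The stimulated clones did so at 2 (*Hoxa4* and *Hoxc13*), beside 9.98%. *Hoxc13* was tested only through its counts in clone 1, and among the 9 tested *Hoxa* genes the calls were 0 and 1. For *Hoxa2*, *Hoxa3*, *Hoxa7* and *Hoxa10* in uninduced cells the intervals of the difference between clones were -0.29 to 0.19, -0.28 to 0.15, -0.15 to 0.20 and -0.25 to 0.35.

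The response to TGF-β1 + DMII ran mostly towards lower *Hoxa* levels. In WT cells *Hoxa3* and *Hoxa4* fell past both thresholds, 2 of 10 Hox genes, beside a fall in 13.6% of all tested genes (19.9% in either direction). With glmTreat the response had 1 call in WT and 0 in each clone. *Hoxa3* went from 23.2, 21.7 and 21.5 CPM to 11, 10.2 and 9.15 (-1.13 ± 0.11, adjusted p = 4.51e-10, edgeR's quasi-likelihood test), and *Hoxa4* from 11.6 to 3.71 CPM on average (-1.64 ± 0.18, adjusted p = 3.54e-09). With the adjusted p alone, 4 *Hoxa* genes were lower (31.9% of all genes were), among them *Hoxa7* at -0.92 ± 0.09 and *Hoxa2* at -0.68 ± 0.12. *Hoxa5* was 0.36 ± 0.13 higher (adjusted p = 0.0172).

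In clone 2, *Hoxa2*, *Hoxa4* and *Hoxa7* fell past both thresholds, 3 of 10, beside a fall in 11.2% of all genes (17.7% in either direction). *Hoxa7* went from 43.7, 43.7 and 38.3 CPM to 18.7, 17.6 and 18.6 (-1.20 ± 0.10, adjusted p = 8.7e-12, edgeR's quasi-likelihood test). *Hoxa2* went from 22.4, 19.97 and 19.4 CPM to 11.8, 8.24 and 7.52 (-1.16 ± 0.13), and *Hoxa4* had a log2 fold change of -1.26 ± 0.22 (adjusted p = 1.05e-05). No uninduced library of these genes overlapped a stimulated one, and 5 *Hoxa* genes were lower by adjusted p alone, beside 29.1% of all genes.

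In clone 1 the single call in either direction among 10 Hox genes was *Hoxc13*, beside 16.7% of all genes. That gene would not have passed the filter on low counts without its uninduced clone 1 libraries. With the adjusted p alone, 5 Hox genes were lower, beside 28.6%. *Hoxa2* was just under the threshold (-0.999 ± 0.13) and *Hoxa7* close to it (-0.96 ± 0.09). Without uninduced clone 1 replicate 1 or 2, or stimulated replicate 2, *Hoxa2* passed it at -1.01, -1.06 and -1.09, and without the last *Hoxa7* did too, at -1.07. For *Hoxa3*, the 13.7, 17.4 and 16.4 CPM uninduced and 16.7, 17.1 and 15.3 CPM stimulated overlapped, with an interval of the log2 fold change of -0.17 to 0.26.

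The difference in response was then tested itself. Relative to WT, the response of clone 1 differed past both thresholds at 2 of 10 Hox genes, beside 8.81% of all genes: *Hoxa3* by 1.17 ± 0.16 (adjusted p = 4.84e-07, edgeR's quasi-likelihood test) and *Hoxa4* by 1.11 ± 0.25 (adjusted p = 0.000795). Without stimulated WT replicate 3, *Hoxa4* was at 0.97, and with glmTreat neither gene was called. In clone 2 no Hox gene passed both thresholds, beside 7.85% of all genes, and DESeq2 called 0. With an adjusted p under 0.05 alone there were 2 lower responses (*Hoxa2* at -0.48 ± 0.18 and *Hoxa5* at -0.50 ± 0.18), beside 15.3% of all genes. The summed level of 4 adipocyte markers moved with clone 1 as well: stimulated libraries had 30.5 to 43.0 CPM there, 0.293 to 1.22 in WT and 2.71 to 4.64 in clone 2, and its part in the *Hoxa3* and *Hoxa4* difference was not tested.

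**Figure D3:**
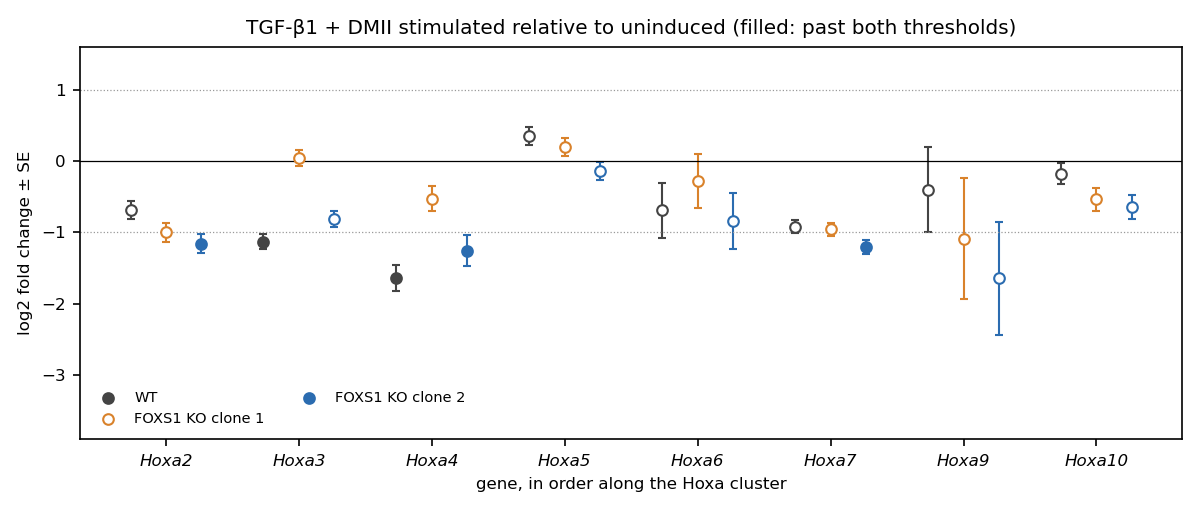
Log2 fold change and SE of stimulated relative to uninduced cells for 8 tested *Hoxa* genes in WT, clone 1 and clone 2, with dotted lines at the fold threshold and filled points past both thresholds. *Hoxa3* is at -1.13 in WT, -0.81 in clone 2 and 0.04 in clone 1, and *Hoxa5* stays between -0.14 and 0.36.

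**Figure D4:**
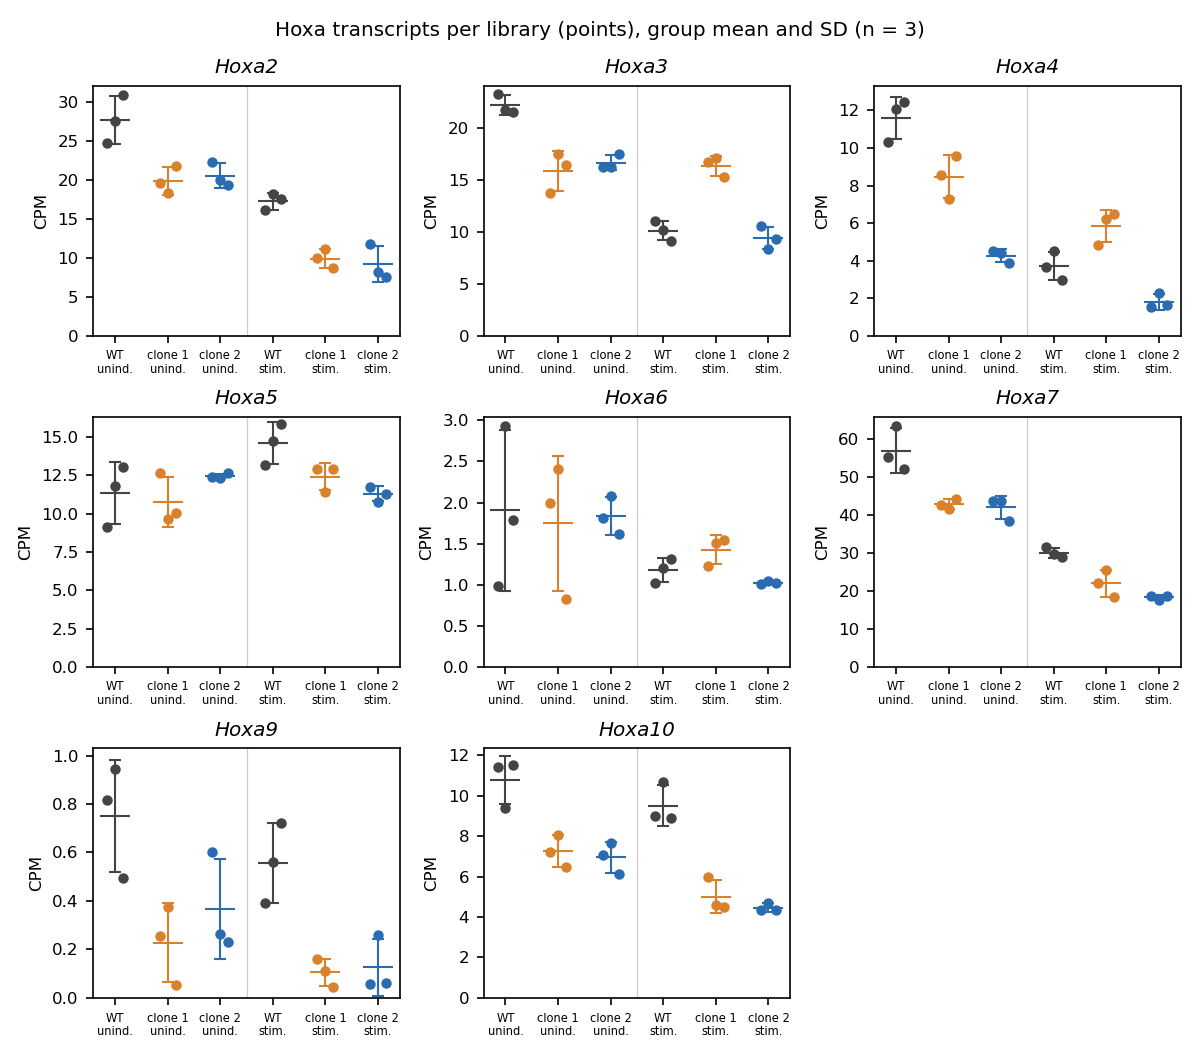
CPM of each library (points) with group mean and SD (n = 3) for 8 tested *Hoxa* genes, each on its own linear axis from 0. Uninduced WT libraries are highest for *Hoxa2*, *Hoxa3*, *Hoxa4* and *Hoxa7*, while *Hoxa3* and *Hoxa4* in stimulated clone 1 lie above stimulated WT.

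Clone 1 had transcripts of *Hoxc13*. *Hoxc13* lies at the high-numbered end of *Hoxc*, on chromosome 15, and is known for its part in hair and nail formation. It had 39, 36 and 38 counts in uninduced clone 1 (2.00, 1.93 and 1.97 CPM) and 6, 22 and 14 counts in stimulated clone 1 (0.319, 0.811 and 0.638 CPM). All 6 WT libraries had 0, and in clone 2 the deepest library (42005596 counts) had 3 and the other 5 had 0. Every clone 1 library was thus above every other library. *Hoxc13* passed the filter on low counts only through clone 1, so the tests below give that difference no separate support. Without the uninduced clone 1 libraries it would not have passed, so the test of its fall on stimulation adds no separate support either.

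With 3 counts per group taken as the floor, uninduced clone 1 was at least 40.9-fold higher than WT (adjusted p = 1.24e-06, edgeR's quasi-likelihood test) and stimulated clone 1 at least 13.6-fold higher (adjusted p = 8.13e-05). Relative to clone 2, the ratio was 55.5 in uninduced cells, with a 95% counting interval of 18.5 to 273, and at least 10.3 in stimulated cells. Within clone 1 the log2 fold change on stimulation was -1.70 ± 0.57 (adjusted p = 0.0145, edgeR's quasi-likelihood test). That call was lost without stimulated replicate 1 (adjusted p = 0.0908) and with no filter on low counts (adjusted p = 0.0534).

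The genes beside it were silent or nearly so. *Hoxc12*, *Hoxc11*, *Hoxc10*, *Hoxc8*, *Hoxc5* and *Hoxc4* had no count, and *Hotair*, the noncoding gene between *Hoxc12* and *Hoxc11*, had 1. The 33 tested genes within 1 Mb had median log2 fold changes relative to WT of 0.38 in uninduced clone 1 and 0.31 in clone 2. Past both thresholds were 2 and 4 of them, beside 15.1% of all tested genes in each clone. After stimulation 7 of the 33 were higher past both thresholds in clone 1 (19% of all tested genes passed in either direction) and 5 in clone 2 (16.9%), with none lower. The 407 well-expressed genes of chromosome 15 had medians of 0.46 in both uninduced clones. *Hoxc13* in uninduced clone 1 reached 0.799 ± 0.0136 FPKM, below *Hoxa6* in that group.

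**Figure D5:**
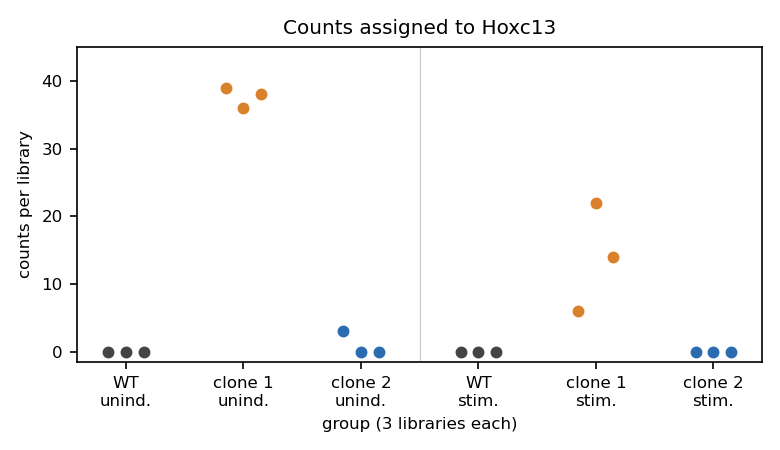
Counts assigned to *Hoxc13* in each of the 18 libraries. The 3 uninduced clone 1 libraries have 36 to 39 counts and the stimulated ones 6 to 22, WT libraries have 0, and 1 clone 2 library has 3.

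Of 17 listed noncoding genes in or beside the clusters that the table held, 3 were tested, all in *Hoxa*. *Hoxaas2*, antisense between *Hoxa2* and *Hoxa3*, had 9.99 ± 1.19 CPM in uninduced WT, 5.204 ± 0.0963 in clone 1 and 3.99 ± 0.526 in clone 2, and 3.99 ± 0.311, 3.14 ± 1.07 and 1.61 ± 0.298 after stimulation. It was lower past both thresholds in clone 2 only, at -1.31 in each treatment (adjusted p = 2.13e-06 and 3.78e-05, edgeR's quasi-likelihood test), while clone 1 was at -0.94 and -0.34. *Hotairm1* and *Hoxaas3* passed in neither clone. Of 10 tested genes of a list of those next to the 4 clusters, none passed in a clone relative to WT, beside 15.1% to 19% of all tested genes. In the wider window of 1 Mb on each side of *Hoxa*, 1 of 12 tested genes passed in uninduced clone 1 (higher), none in stimulated clone 1, and 2 in clone 2 in each treatment (lower). The shares of all tested genes, in either direction, were again 15.1% to 19%.

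The PBC and MEIS proteins bind DNA together with Hox proteins. Of 8 tested genes, 1 was lower past both thresholds in uninduced clone 1 and 2 in uninduced clone 2, and 2 in each clone after stimulation, with none higher, beside 8.73%, 9.56%, 9.60% and 8.94% of all tested genes lower in that order. *Pknox2* was lower in both clones and both treatments, from 3.38 CPM to 1.17 and 1.62 uninduced (-1.53 ± 0.33 and -1.04 ± 0.31) and from 2.75 CPM to 0.233 and 0.534 after stimulation (-3.52 ± 0.40 and -2.37 ± 0.37). *Meis3* passed in stimulated clone 2 (-1.68, named after its value was seen).

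Of 31 Polycomb group genes, 1 was higher in uninduced clone 1, none in uninduced clone 2 and 2 in each stimulated clone, and none was lower, beside 15.1%, 15.1%, 19% and 16.9% of all tested genes past both thresholds in either direction. *Ezh1*, an H3K27 methyltransferase, went from 22.3 CPM in stimulated WT to 137 in clone 1 and 87.3 in clone 2 (2.63 ± 0.07 and 1.97 ± 0.07), and *Pcgf5*, of the noncanonical PRC1 complex, from 2.102 CPM to 10.1 and 12.0 (2.26 ± 0.17 and 2.504 ± 0.17). Of 15 Trithorax group and H3K27 demethylase genes none passed in either direction, beside the same shares of all genes. The medians of the Polycomb list relative to WT lay between -0.15 and 0.03 and those of the Trithorax list between 0.13 and 0.24, beside medians within 0.02 of 0 over all genes.

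Other transcription factors of regional identity, from a list of 55 genes outside the Hox clusters, had 34 tested members. Lower past both thresholds were 12 in uninduced clone 1 (8.73% of all tested genes were lower) and 10 in uninduced clone 2 (9.56%), and after stimulation 8 in clone 1 (9.60%) and 11 in clone 2 (8.94%), while 1 was higher, *Foxf2* in stimulated clone 1 (1.43, named after its value was seen). The medians of the list were -0.50, -0.52, -0.44 and -0.53 in that order. The list was chosen with results of these libraries known, and both clones share their WT libraries, so a count in both is not independent.

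The members lower in both clones in at least 1 treatment included *Nr2f1*, *Gata6*, *Msx1*, *Foxf1*, *Pax9*, *Otx1*, *Lhx2*, *Msx2*, *Lhx9* and *Meox1*. *Nr2f1*, a gene of the forebrain and cranial neural crest, went from 129 CPM in uninduced WT to 64.4 in clone 1 and 47.3 in clone 2 (-1.01 ± 0.06 and -1.45 ± 0.06). *Gata6*, a gene of heart and endoderm, went from 28.2 CPM to 10.1 and 9.78 (-1.48 ± 0.12 and -1.54 ± 0.11). *Foxf1*, a gene of visceral mesenchyme, went from 20.99 CPM to 7.07 and 4.90 (-1.56 ± 0.14 and -2.07 ± 0.14).

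*Msx2*, a gene of skull and limb mesenchyme, had 104 counts in uninduced WT and 581 in stimulated WT, and 0 in uninduced clones 1 and 2 and stimulated clone 2, with 2 in stimulated clone 1. It was at least 31.9-fold and 46.97-fold lower in uninduced clones 1 and 2 and at least 147-fold lower in stimulated clone 2. *Meox1*, a somite gene, had 96 counts in uninduced WT against 15 and 19 in the clones (-2.54 ± 0.61 and -2.75 ± 0.60), and 131 against 1 and 0 after stimulation. *Pax9* (-1.45 ± 0.15 and -1.35 ± 0.15 uninduced) was at -0.22 and -0.03 after stimulation.

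The RefSeq promoter table (GRCm38.p6) matched 22 of the 39 Hox genes, 7 of the 10 tested ones among them. The 250 bases before the start are shown for *Hoxa2*, *Hoxa5* and *Hoxa10*, a gene that fell on stimulation in clone 2, one that passed both thresholds in no comparison and one that did so in stimulated clone 2. They are chr6:52164832-52165081, chr6:52204588-52204837 and chr6:52240855-52241104, all on the minus strand. Capitals mark matches on either strand to the CCAAT box (CCAAT), the TATA box (TATAAA) and the PBX-HOX motif (TGATNNAT). They also mark the forkhead motif in the exact form TGTTTAC. Matches to the SMAD palindrome (GTCTAGAC) were sought but not marked. Other forms of the forkhead motif were not searched. Overlapping matches run together.
Hoxa2: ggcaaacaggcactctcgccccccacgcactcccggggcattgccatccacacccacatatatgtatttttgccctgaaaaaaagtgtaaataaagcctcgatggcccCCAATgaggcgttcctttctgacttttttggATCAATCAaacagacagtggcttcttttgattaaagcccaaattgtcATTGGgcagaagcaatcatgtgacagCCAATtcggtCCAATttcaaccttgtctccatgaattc
Hoxa5: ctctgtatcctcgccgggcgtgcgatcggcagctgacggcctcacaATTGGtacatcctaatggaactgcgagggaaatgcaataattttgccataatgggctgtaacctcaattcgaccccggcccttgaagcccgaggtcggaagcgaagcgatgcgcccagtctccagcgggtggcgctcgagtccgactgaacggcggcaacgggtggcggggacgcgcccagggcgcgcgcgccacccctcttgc
Hoxa10: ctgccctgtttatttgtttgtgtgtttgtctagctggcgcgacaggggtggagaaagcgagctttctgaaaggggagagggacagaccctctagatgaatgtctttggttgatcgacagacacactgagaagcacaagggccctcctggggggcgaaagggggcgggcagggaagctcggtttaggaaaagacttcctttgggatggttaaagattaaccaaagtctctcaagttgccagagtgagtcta
The *Hoxa2* window held 4 matches to CCAAT, found in 33.85% of 32851 promoter windows of this length, and 1 to TGATNNAT, found in 7.68%. *Hoxa5* held 1 match to CCAAT, and the *Hoxa10* window shown held none of the 5 motifs. CpG dinucleotides numbered 6, 28 and 7 in the 3 windows, with a median of 6 over all windows. TGTTTAC was in 3.17% of all windows and GTCTAGAC in 0.167%, and neither was in a Hox window. TATAAA, in 12.4% of all, was found once before the other *Hoxa10* start of the table (chr6:52234940-52235189) and before no other tested Hox gene. That other *Hoxa10* window also held 1 match to CCAAT, and 20 CpG dinucleotides.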

How the data were processed

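RNA-seq was analysed from 18 libraries, 3 in each of 6 groups taken from the sample labels. The authors aligned poly(A) RNA reads with HISAT2 to mm10 (GRCm38) and deposited raw counts per gene, with gene positions and lengths. Neither the counting program nor the annotation release or strand setting was given in the sources used. The Hox members and the other gene lists were chosen with earlier results of these data known.

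Genes were filtered with filterByExpr (minimum count 10) and tested with edgeR 4.0.16 in R 4.3.3 (TMM, quasi-likelihood F-test over all 18 libraries, 6 group means, 11 contrasts), adjusted by Benjamini-Hochberg over 14317 genes. Calls needed an adjusted p under 0.05 and an absolute log2 fold change above 1. CPM (TMM-scaled) and FPKM were computed here from the deposited counts and lengths. Intervals are 95%. Ratios with few counts have exact binomial intervals, and a group at 0 was set to 3 counts, both covering counting error only.

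Hox members past both thresholds in a clone relative to WT are given per library, and genes of other lists are named where both clones passed in one direction, with exceptions stated. Homeoboxes were read from GENCODE M21 transcripts, and promoters are from RefSeq (GRCm38.p6). Counts, sums and medians cover all members, but some genes and homeobox sequences are not reported here by name or letters. No 2 replicates were alike within sampling noise (chi-square per degree of freedom 3.13 to 14.6). Alternatives were DESeq2 1.42.0, other filters and normalizations, glmTreat, a replicate block and leaving out each library. The scripts were tested on simulated data.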

Additional observations from a re-analysis of the deposited data

Results flagged for a closer look

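Between the clones, *Hoxa4* differed by 1.71 ± 0.21 on the log2 scale after stimulation (adjusted p = 8.88e-08, edgeR's quasi-likelihood test), with all 3 libraries of clone 1 above those of clone 2. It was selected because the effects of the 2 clones differed by a direct test.

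The response to TGF-β1 + DMII differed between clone 1 and WT by 1.17 for *Hoxa3* and by 1.11 for *Hoxa4* on the log2 scale. Both were selected by the test of the difference in response. Without stimulated WT replicate 3, *Hoxa4* was at 0.97, and with glmTreat, a test against the fold threshold itself, neither gene was called.

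*Hoxc13* in clone 1 was 55.5 times the level of clone 2 in uninduced cells (95% counting interval 18.5 to 273) and at least 10.3 times in stimulated cells. It was selected because the clones differed by test. *Hoxc13* passed the filter on low counts only through clone 1, so that test adds no separate support.

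*Hoxc9*, which did not pass the filter on low counts, had 8 counts in clone 1 and 0 in WT and in clone 2. It was selected as a signal outside the tested genes that was above the WT libraries, and the difference was not tested.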

How the results depend on the processing

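Of 2684 alternative values for 104 log2 fold changes of Hox genes, 2608 kept their direction and side of the thresholds, 22 lost a call, 12 gained one, 0 reversed a call and 42 crossed 0 without a call. None of 248 alternative per-length levels moved by more than 1 SD. Counts of Hox genes past both thresholds moved by over 1.5 times as follows, and the cause was not tested. For uninduced clone 1 relative to WT the count went from 2 to 1 with DESeq2, with a filter of 1 CPM in 3 libraries, with only the compared groups in the fit and with glmTreat. With only the compared groups, stimulated clone 1 relative to WT had 1 in place of 3, and relative to clone 2 had 1 in place of 2. With no filter, uninduced clone 2 relative to WT had 2 in place of 1, with *Hoxa13* added from 1 WT library, and the response of clone 1 had 0 in place of 1. With glmTreat, stimulated clone 1 relative to WT had 1, stimulated clone 2 had 0, the response had 1 in WT and 0 in each clone, and the difference in response of clone 1 had 0. With the chromosome median subtracted, stimulated clone 2 relative to WT had 1. With no fold threshold the counts relative to WT were 8 and 5 in uninduced clones 1 and 2 and 8 and 6 in stimulated ones, those between clones 2 uninduced and 4 stimulated, those of the response 5 in each genotype, and that of the difference in response of clone 2 was 2. Leaving out uninduced WT replicate 1 and clone 2 replicate 1 together, chosen after seeing the data, gave 1 for uninduced clone 1 relative to WT and 2 between the uninduced clones.

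Leaving out 1 library at a time gave 1 to 3 for uninduced clone 1 relative to WT, 1 to 3 for stimulated clone 2 relative to WT, 1 to 2 between uninduced clones, 0 to 3 for the response of clone 1 and 1 to 2 for the difference in response of clone 1. Calls lost this way are named in the report. Among the gains, *Hoxa2* in stimulated clone 2 was at -1.14 without its replicate 1 and *Hoxa9* in the response of clone 2 at -2.62 without stimulated replicate 2.

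Replicate numbers did not pair the samples (45 correlations of same-numbered libraries between -0.0412 and 0.0498; 4 of 18 libraries correlated best with their own number). With the replicate number as a block, the counts of Hox genes were 2, 1, 3 and 3 for the clones relative to WT, 1 and 2 between clones, 2, 1 and 3 for the responses and 2 and 0 for the differences in response, each as without it. Depth limits *Hoxa9* (1 to 27 counts per library) and *Hoxc13* most, and levels of silent genes under 0.0354 to 0.0603 CPM per group could not be detected.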
